A study of Mus musculus with 13 samples.

Results

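A set of 10 genes that control or build the growing hair follicle was followed through 2 days in mouse back skin: Msx2, Foxn1, Hoxc13, Lef1, Dlx3, Shh, Wnt10b, Padi3, Tchh and Gata3. They were chosen by name with earlier results of these data known. Each was taken through its highest-mean probe set that is assigned to 1 gene, and each had 1 such probe set. All 10 were among the 19938 genes measured, and all 10 passed the filter on dim genes that left 14953 genes tested. Each of the 13 arrays held whole back skin of male C57Bl6 mice at postnatal day 46, a stage that the labels give as telogen, when follicles rest. Light and dark lasted 12 h each. Hours are counted from lights on (zeitgeber time, ZT), the array titled ZT46 was taken 46 h after the start, and the other 12 were taken every 4 h from hour 2 to hour 50. RNA of 3 mice was pooled for each array, so errors and p-values measure how far pools differ, which leaves out differences between single animals.

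The hair follicle grows (anagen), regresses and rests in cycles. In a growing follicle, WNT and Sonic hedgehog signals act on the epithelium of the bulb, where dividing matrix cells give rise to the hair shaft and to the inner root sheath that surrounds it. Transcription factors of the matrix and precortex, among them MSX2, FOXN1, HOXC13, DLX3 and LEF1, then act in the programme of hair keratins and sheath proteins. These lineages are built anew in each growth phase and are largely missing from a resting follicle.

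Array medians lay between 353.8 and 392.8 intensity units, and the number of arrays limits the precision. Across genes, which are no independent replicates, the correlation of any array with another ran from 0.886 to 0.992. The ZT46 array had a median correlation of 0.941 with the other arrays, and the other arrays had one of 0.974 among themselves. The median of the 1194 olfactory and vomeronasal receptor genes measured, used for the dim end of each array, was 109 in the ZT46 array and 70.5 to 117 in the others. The 10 liver genes measured summed to 10214 in the ZT46 array and to between 17001 and 87279 in the others, although the label is back skin. The summed intensity of the 15 skeletal muscle genes was 88344 in the ZT46 array and 98994 to 133449 in the others.

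The array titled ZT46 stood apart for most of these regulators. It held the highest of the 13 values for 8 of the 10, all but Wnt10b and Gata3, while 8.63% of all genes tested were highest there. Of these, 4 genes, Tchh, Padi3, Msx2 and Hoxc13, were both highest there and at least 1.5-fold above the mean of the other 12, which was the case for 0.629% of all genes tested. The median difference of the 10 was 0.53 on the log2(intensity + 16) scale, against -0.04 over all genes tested. This array, the 10 genes and the gene lists used below were chosen with earlier results of these data known. The array is also 1 pool with no second pool like it. Its differences, and the counts set beside those of all genes, are therefore a description and carry no test. In whole skin, more cells of a type and more RNA per cell cannot be told apart.

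**Figure D1:**
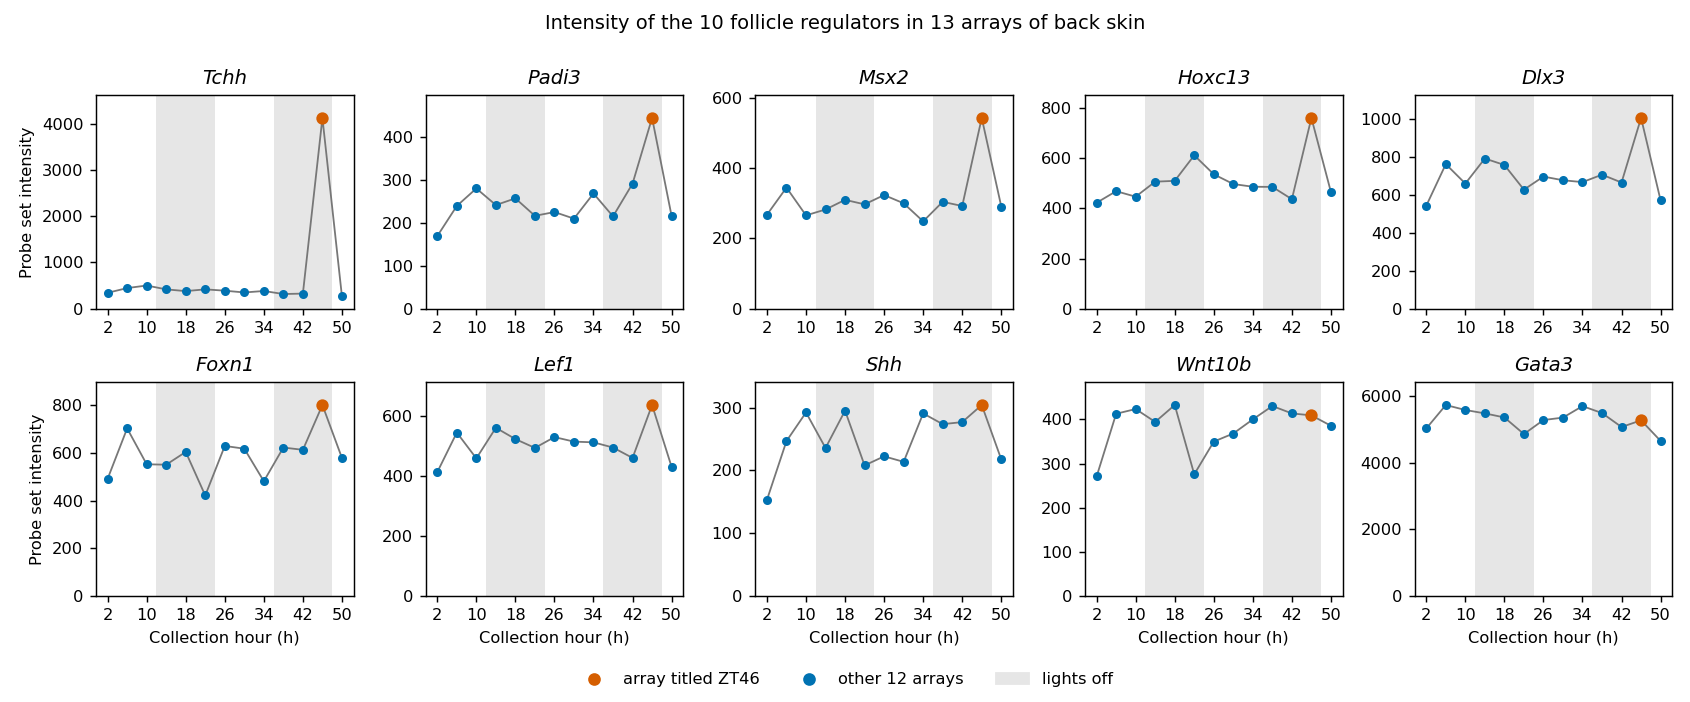
Probe set intensity (linear axis from 0) of each regulator against collection hour, with the ZT46 array in orange, the other 12 arrays in blue and the dark phase shaded. Tchh reaches 4132 in the ZT46 array and at most 501 elsewhere, while Wnt10b and Gata3 lie within the range of the other arrays.

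The genes of the sheath and medulla came first in size. Trichohyalin, the product of Tchh, is an arginine-rich protein that hardens the inner root sheath and the medulla of the hair. PADI3, a peptidylarginine deiminase, converts arginines of trichohyalin to citrulline, after which transglutaminases crosslink it. The 250 bases before the start of Tchh, Padi3 and Msx2, the 3 genes with the largest difference, are given because they stand for a structural protein, its modifying enzyme and a regulator that were high in the same array. They are RefSeq sequences of build GRCm38.p6, at chr3:93442080-93442329 on the plus strand for Tchh, chr4:140810649-140810898 on the minus strand for Padi3 and chr13:53472781-53473030 on the minus strand for Msx2. The build behind the arrays is not given in the sources used here. Capitals mark matches, on either strand, to 6-letter motifs, which are CTTTGA for LEF1 and TCF factors and AGATAA for the family of GATA3.
Tchh: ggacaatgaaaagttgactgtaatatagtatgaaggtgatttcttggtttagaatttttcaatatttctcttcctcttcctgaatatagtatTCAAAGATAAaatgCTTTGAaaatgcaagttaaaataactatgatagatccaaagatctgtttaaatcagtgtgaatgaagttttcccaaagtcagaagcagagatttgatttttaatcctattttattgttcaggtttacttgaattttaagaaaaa
Padi3: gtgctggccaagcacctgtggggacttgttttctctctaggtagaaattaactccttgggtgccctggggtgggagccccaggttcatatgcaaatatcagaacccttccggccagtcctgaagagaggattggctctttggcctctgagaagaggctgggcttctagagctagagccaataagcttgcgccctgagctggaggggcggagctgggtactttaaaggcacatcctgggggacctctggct
Msx2: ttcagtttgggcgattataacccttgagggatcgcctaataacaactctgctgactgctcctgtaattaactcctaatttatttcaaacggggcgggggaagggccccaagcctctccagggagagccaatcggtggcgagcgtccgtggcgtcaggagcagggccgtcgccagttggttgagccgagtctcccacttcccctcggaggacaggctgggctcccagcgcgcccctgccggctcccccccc
The Tchh window holds CTTTGA in both orientations, starting 158 and 144 bases before the start, and the AGATAA at 154 bases overlaps the first of them. Of 32851 windows of the same length, 13.8% hold CTTTGA and 9.99% hold AGATAA on either strand. Also searched on both strands were the core promoter element TATAAA, held by 12.4% of windows, TAATTG for MSX and DLX homeodomains, held by 7.17%, and CGTAAA for posterior HOX factors, held by 2.61%. None of these is in the 3 windows. Windows of 7 members were searched, and apart from Tchh a match was found only in 1 of the 4 windows of Lef1, which holds TATAAA once and CTTTGA at 2 places. A match is a description of letters and not a site.

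Tchh had an intensity of 4132 in the ZT46 array, against a lowest value of 266, a median of 381 and a highest value of 501 in the other 12. No other array came near the ZT46 value, and the array that followed it by 4 h, hour 50, held the lowest. On the log2 scale the difference was 3.41, or 10.7-fold, where the SD of the other 12 was 0.23. Among the 94 genes tested that met the 1.5-fold rule, Tchh ranked 26th by size.

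Padi3 gave 443 in the ZT46 array, and a lowest value of 169, a median of 232 and a highest value of 290 in the others. Its difference was 0.88 in log2 (1.85-fold; SD of the others 0.20), about as large as that of Msx2 and far below that of Tchh. The other 4 peptidylarginine deiminase genes measured did not meet the rule, though 2 of them were highest in the ZT46 array. Padi1, a dim gene left out of the tests, came closest with a difference of 0.576 in log2, just short of 1.5-fold. Padi2, which acts in several tissues, had 531 in the ZT46 array and 527 to 1362 in the others. Padi4 had 298 in the ZT46 array and 132 to 248 in the others, a difference of 0.51 in log2.

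Msx2 encodes a homeodomain factor of the matrix that lies upstream of Foxn1 in mouse hair. It had 544 in the ZT46 array, against a lowest value of 249, a median of 295 and a highest value of 345 in the other 12. With an SD of 0.12 in log2 among the others, the difference of 0.86 (1.81-fold) stood well clear of their range, and the ZT46 value was 1.55-fold above the highest of them. Hoxc13, a homeodomain factor that acts on hair keratin genes and whose loss leaves mice without external hair, had 761 in the ZT46 array and 423, 486 and 612 as lowest, median and highest of the others. Its difference was 0.63 (1.54-fold), and the highest of the other arrays was the first ZT22 array, the pool taken at the same time of day 1 day earlier.

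Dlx3 and Foxn1 lay just under the 1.5-fold line. Dlx3, a homeodomain factor needed for shaft and sheath differentiation, had 1008 in the ZT46 array and 544, 674 and 793 as lowest, median and highest of the others, a difference of 0.57 (1.48-fold). Hoxc13 at 1.54-fold was thus the last gene inside the line and Dlx3 the first outside it. Dlx3 passed the line after quantile normalization, after a shift of all arrays to the same median, and without the first ZT14 array. Foxn1, the forkhead factor lost in nude mice, had 802 in the ZT46 array against 421, 592 and 703 in the others, a difference of 0.49 (1.40-fold). Its lowest value came from the first ZT22 array, where Hoxc13 was at its highest, so these 2 factors stood at opposite ends of their ranges in that pool.

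Lef1, which binds DNA with beta-catenin to carry WNT signals in the matrix, precortex and dermal papilla, had 636 in the ZT46 array. In the other 12 its lowest, median and highest values were 412, 503 and 560, and the difference was 0.36 (1.28-fold). The ZT46 value was 1.13-fold above the highest of the others. Lef1 was therefore the highest in the ZT46 array by 0.18 in log2, where the SD of the others was 0.13.

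The ligands were the members with the smallest differences besides Gata3. Shh, the hedgehog ligand of the bulb, had 304 in the ZT46 array, against 153, 241 and 295 as lowest, median and highest of the others. That is a difference of 0.32 in log2 (1.25-fold), with an SD of 0.26 among the others, and the ZT46 value was 1.03-fold above the first ZT18 array. Wnt10b, a WNT ligand of the follicle epithelium, had 409 in the ZT46 array, against 271, 397 and 433 in the others, and 5 arrays were higher. The median of all 1194 receptor genes was itself higher in the ZT46 array, by 0.24 in log2, and 329 of them were highest there. The part of this dim end in the values of the regulators, Shh, Wnt10b and Padi3 among them, was not tested.

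Gata3 directs the inner root sheath lineage, and it is also active in the epidermis between follicles and in T cells. It had 5281 in the ZT46 array, against 4660.4, 5365 and 5742 as lowest, median and highest of the others, with 8 arrays higher. Its difference was 0.00 in log2, and its SD among the other arrays, 0.09, was the smallest of the 10. The factor of the sheath lineage thus lay inside its usual range in the array where the sheath protein Tchh was 10.7-fold higher.

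**Figure D2:**
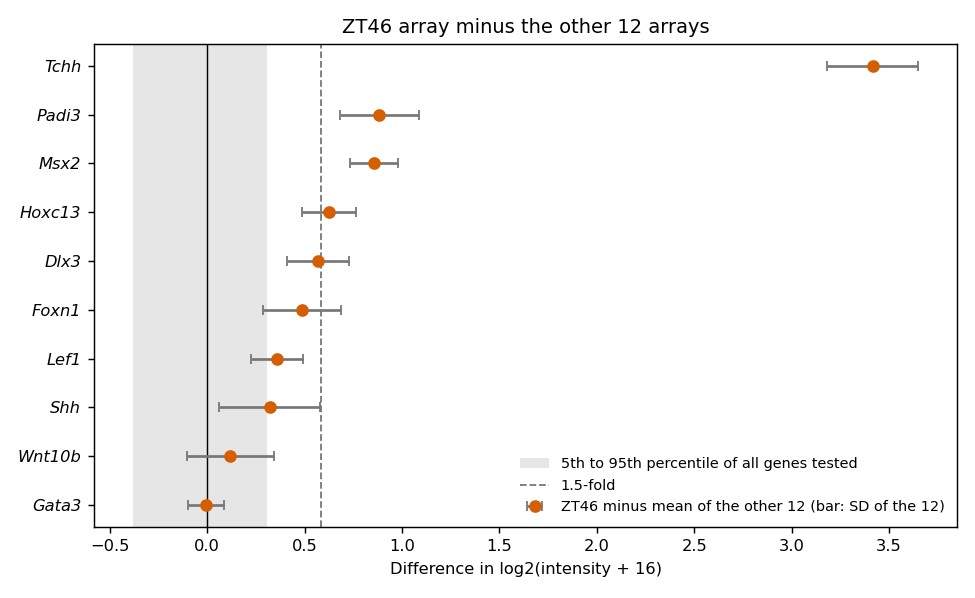
Difference of the ZT46 array from the mean of the other 12 for each regulator on the log2(intensity + 16) scale, with the SD of the other 12 as bars and the 5th to 95th percentile of all genes tested, -0.38 to 0.31, as a grey band. Of the 10, 8 regulators lie above the band, Wnt10b and Gata3 lie inside it, and 4 lie past the dashed 1.5-fold line.

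Keratin associated proteins, hair shaft keratins and inner root sheath genes were higher in the same array, with larger median differences than the regulators, among which Tchh is itself structural. Filtering on the mean keeps dim genes that are high in 1 array, so the counts of gene lists cover all genes measured, of which 0.672% met the rule. Of 44 keratin associated protein genes, which encode the matrix between hair keratin filaments, 40 met it, with a median difference of 3.02. Their summed intensity was 204782 in the ZT46 array and 17276 to 30196 in the others. Krtap19-3 showed a 30.8-fold, Krtap15 a 27.7-fold and Krtap4-16 a 24.7-fold difference.

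The rule was met by 9 of 12 hair shaft keratins, with a median difference of 1.05, and by 9 of 10 genes of the inner root sheath, with a median of 2.33. Krt31, a keratin of the hair cortex, had 11248 in the ZT46 array and 290 to 564 in the others. Krt71, a keratin of the inner root sheath, had 6402 in the ZT46 array and 279 to 637 in the others, and its sheath partners Krt25, Krt27 and Krt28 were 12.8-fold, 8.87-fold and 7.37-fold higher. Tgm3, a transglutaminase that crosslinks trichohyalin, was 1.55-fold higher, at 549.98 in the ZT46 array and 252 to 492 in the others, and Tchhl1, a relative of Tchh, was 2.79-fold higher. The choice of Tgm3 and Tchhl1 was made with their values in view.

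The list of shaft and cuticle proteins outside the keratin families was mixed. Of its 16 genes measured, 8 met the rule and 1 met its mirror (lowest of the 13 arrays and at least 1.5-fold below the mean of the others), with a median difference of 0.48. Tyrp1, 1 of the 8, is counted again among the melanocyte genes. Msx1, which did not meet the rule, is counted again among the other follicle transcription factors. Gprc5d, a membrane receptor known from hair keratinising cells, had 1759 in the ZT46 array and 80.8 to 157 in the others. S100a3, a calcium-binding protein of the hair cuticle, had 1717 in the ZT46 array and 153 to 234 in the others. The gene on the lower side was Fbp1, an enzyme of gluconeogenesis that liver also uses, with 254 in the ZT46 array and 301 to 4173 in the others. With the dimmest 50% of genes left out, 5 of the 16 remained and 0 of them met the rule.

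The signalling pathways around the regulators differed less. None of the 13 Hedgehog genes measured met the rule, with a median difference of 0.04. The Hedgehog targets Gli1 and Ptch1 had 393 and 1325 in the ZT46 array, inside their ranges of 308 to 428 and 1167 to 1586 in the others. Of 41 WNT pathway genes none met the rule either, with a median of 0.06. Axin2, a direct target of WNT signalling, had 1044 in the ZT46 array and 918 to 1126 in the others. The choice of Gli1, Ptch1 and Axin2 was also made with their values in view. Dkk1, a secreted WNT inhibitor, came closest to the line with 597 in the ZT46 array and 296 to 521 in the others (1.44-fold).

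No gene met the rule among 21 BMP pathway genes (median 0.09), 12 Notch pathway genes (median 0.02), 17 dermal papilla genes (median 0.07) and 11 genes of FGF and EGF signals (median -0.01). Bambi, a decoy receptor of the BMP family, had 624 in the ZT46 array and 444 to 573 in the others, and Hes5, a Notch target, had 772 in the ZT46 array and 449.7 to 746 in the others. Fgf7, a growth factor of the dermal papilla, had 512 in the ZT46 array and 527 to 863 in the others. It went against most of its list, since 12 of the 17 dermal papilla genes were above the mean of the others and 2 were highest in the ZT46 array. Among 23 other follicle transcription factors none met the rule, 7 were highest in the ZT46 array, and the median was 0.09. Dlx2 and Dlx4, relatives of Dlx3, came nearest, with 1.47-fold each, and 2 genes of this list met the rule with an offset of 1 or with arrays shifted to the same median. Dlx2 had 377 in the ZT46 array and 191 to 294 in the others, and Dlx4 had 321 in the ZT46 array and 152 to 263 in the others.

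Other compartments of the follicle and skin gave these values. Of 9 genes of the companion layer and outer root sheath, none met the rule and the median was 0.01, with Krt75 at 4489 in the ZT46 array and 2586 to 4485 in the others. None of 15 genes of resting follicle stem cells met it (median 0.00), among them Lhx2, a stem cell factor, with 2098 in the ZT46 array and 1430 to 2319 in the others. Of 10 melanocyte genes, 1 met it, Tyrp1, an enzyme of pigment synthesis, with 488 in the ZT46 array and 240.4 to 409 in the others, and 7 of the 10 were highest there. No melanocyte gene met it with an offset of 64, with the dimmest 50% left out, or without the first ZT18, the second ZT18 or the second ZT2 array. All 19 genes of mitosis and G2 were above the mean of the others (median 0.25), none met the rule, and the largest sum among the other arrays, 11829 against 10812 in the ZT46 array, was that of the first ZT22 array. Of the 18 mitosis and G2 genes tested, 12 had a 24 h rhythm that passed limma's F test, described with the rhythms of the regulators. By contrast, 15 of 18 genes of DNA replication were below the mean of the others (median -0.12).

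**Figure D3:**
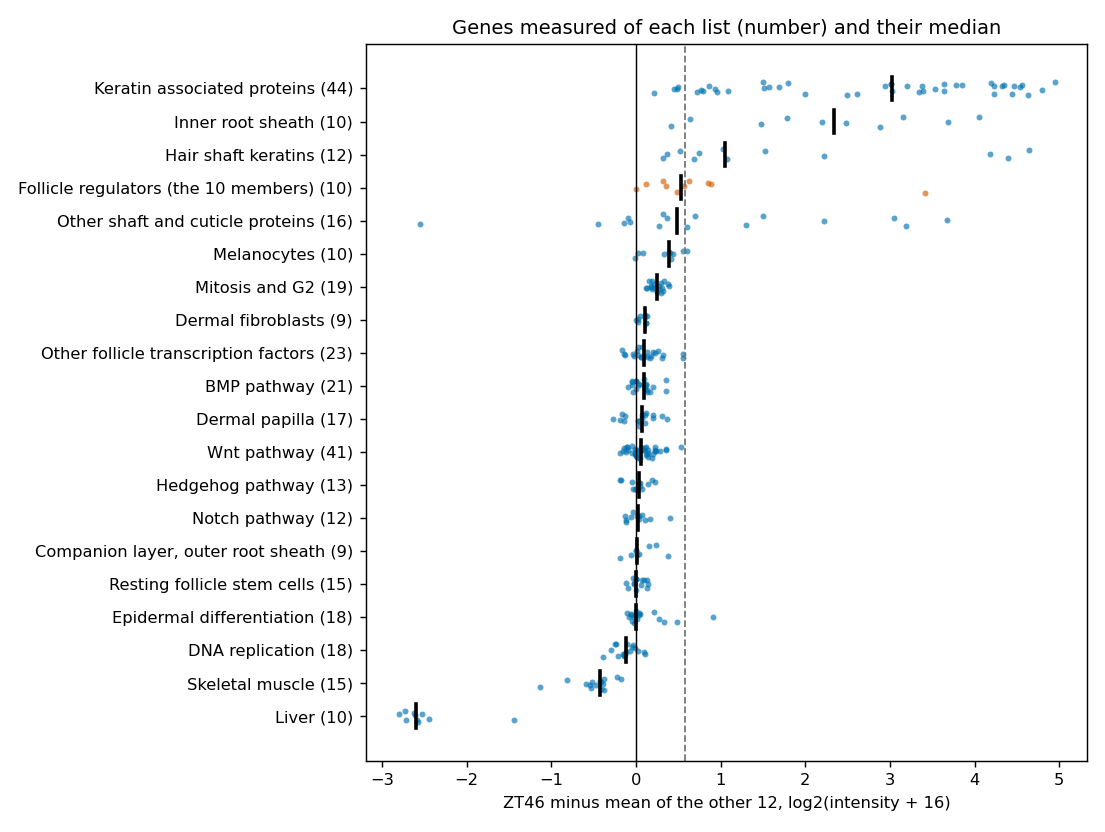
Difference of the ZT46 array from the mean of the other 12 for every gene measured (points) of 20 lists on the log2(intensity + 16) scale, with the median of each list as a black bar and 1.5-fold as a dashed line. Keratin associated proteins, inner root sheath genes and hair shaft keratins have medians of 3.02, 2.33 and 1.05, the regulators in orange one of 0.53, and the signalling pathways medians of at most 0.09.

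Markers of liver and skeletal muscle were lower in the ZT46 array. All 10 liver genes met the mirrored rule, as did 1.7% of all genes measured, with a median difference of -2.60. Apoa1, an apolipoprotein of liver, had 637 in the ZT46 array and 1166 to 9531 in the others. All 15 skeletal muscle genes were below the mean of the others (median -0.43), and 2 met the mirrored rule, one of them Tcap, a protein of the muscle Z-disc, with 284 in the ZT46 array and 295 to 1003 in the others. The part of these tissues in the higher values of the regulators was not tested. Of 18 epidermal differentiation genes (median 0.01), 10 sebaceous gland genes (0.05), 9 dermal fibroblast genes (0.11), 10 adipocyte genes (0.03), 11 macrophage and dendritic cell genes (-0.03), 9 T cell and mast cell genes (0.22), 2 red blood cell genes (0.12) and 10 exocrine pancreas genes (0.15), none met the rule, except that 1 epidermal gene met it without the third ZT2 array.

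Across the day, none of the 10 regulators had a 24 h rhythm that passed the limma F test with Benjamini-Hochberg adjustment over all genes tested, where 2.13% of genes passed. Fitted peak-to-trough folds ran from 1.04 for Foxn1 to 1.82 for Tchh, with a median of 1.24 where that of all genes tested was 1.14. Adjusted p-values (limma) lay between 0.257 and 0.977. At an unadjusted p under 0.05 there were 2, Shh and Gata3, while 18.5% of all genes reached it. Of the genes in the other lists, 15 of 15 clock genes tested passed the same test, so rhythms of their size were visible on these arrays. Whether folds like those fitted to the regulators would pass is not shown by this.

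The largest fold, that of Tchh, was set by the ZT46 array. Its peak-to-trough difference was 0.86 ± 0.71 in log2 (SE, n = 13 arrays) with the array and 0.26 ± 0.18 (SE, n = 12 arrays) without it. For Msx2 the same values were 0.36 ± 0.18 and 0.11 ± 0.11, and for Hoxc13 they were 0.31 ± 0.15 and 0.13 ± 0.12. Without the ZT46 array, again none of the 10 passed, where 2.64% of all genes did, and the lowest adjusted p (limma) was 0.116, that of Shh. At an unadjusted p under 0.05 there were 3, Shh, Wnt10b and Gata3, against 24.5% of all genes.

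Shh and Wnt10b had the largest fitted folds over the 12 arrays, 1.42 and 1.33. Shh averaged 198 ± 38.8 at ZT2 (SD, n = 3) and 292 ± 1.11 at ZT10 (SD, n = 2). Wnt10b averaged 335 ± 58.9 at ZT2 (SD, n = 3) and 412 ± 16.6 at ZT10 (SD, n = 2). The first ZT2 array held the lowest value of both genes, and it also had the lowest receptor median, 70.5, with 82.4 in the first ZT22 array, where both were low as well. With the receptor median as a covariate, an alternative chosen after seeing the data, the peak-to-trough difference of Shh was 0.22 in log2 in place of 0.44, and that of Wnt10b 0.19 in place of 0.35.

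**Figure D4:**
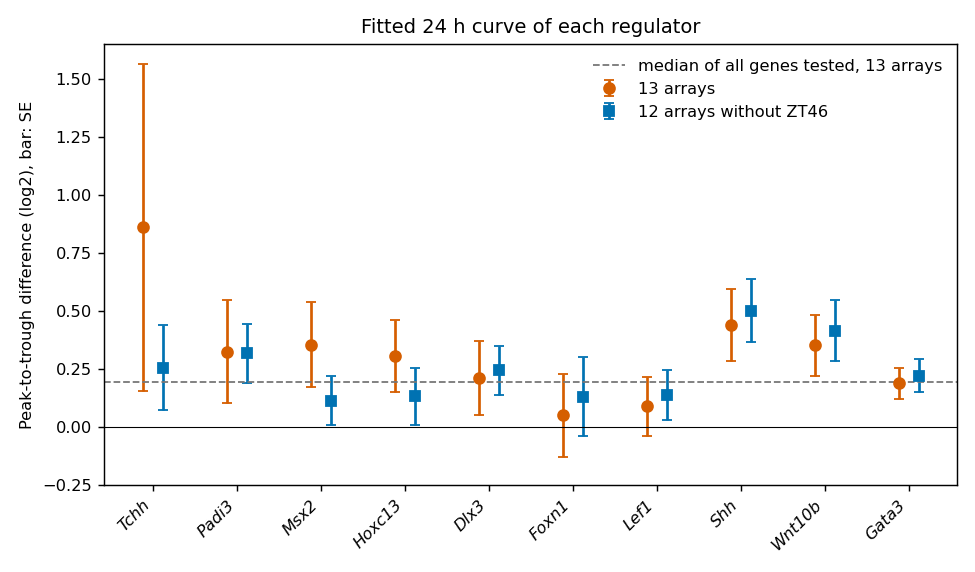
Fitted 24 h peak-to-trough difference of each regulator in log2, with SE bars, over 13 arrays (orange circles) and over the 12 arrays without ZT46 (blue squares), with the median of all genes tested over 13 arrays as a dashed line. The value of Tchh is 0.86 with the ZT46 array and 0.26 without it.

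Dark and light were compared over 6 dark and 7 light arrays. None of the regulators passed limma with Benjamini-Hochberg adjustment, where 0.0201% of all genes did, and none had an unadjusted p under 0.05, which 8.28% of genes had. The differences, dark minus light, ran from -0.02 in log2 for Gata3 to 0.54 ± 0.47 (SE) for Tchh. Tchh averaged 998 ± 1536 in the dark arrays (SD, n = 6) and 382 ± 75.3 in the light arrays (SD, n = 7), and without the ZT46 array the difference was -0.03. Dlx3 averaged 760.5 ± 135 in the dark arrays and 655 ± 74.9 in the light arrays, a difference of 0.20 ± 0.10 (SE) with an adjusted p of 0.639 (limma).

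Among the 12 arrays without ZT46, the SD of the regulators' log2 values had a median of 0.18, where that of all genes tested was 0.15. Shh varied most, with an SD of 0.26, and Gata3 least. The plain correlation between genes over these 12 arrays, given as a description since the arrays share time of day and signal at the dim end, had a median of 0.36 over the 45 pairs of regulators and of 0.02 over all pairs of genes tested. Lef1 and Dlx3 were the most alike (r = 0.91), both lowest in the first ZT2 array and highest, among the 12, in the first ZT14 array. Shh was most like Padi3 (r = 0.88) and Wnt10b (r = 0.86), and all 3 were lowest in the first ZT2 array. Msx2 and Foxn1 gave r = 0.67, Foxn1 and Hoxc13 r = -0.32, and Msx2 and Tchh r = 0.01, where the last pair gave r = 0.87 with the ZT46 array included.

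**Figure D5:**
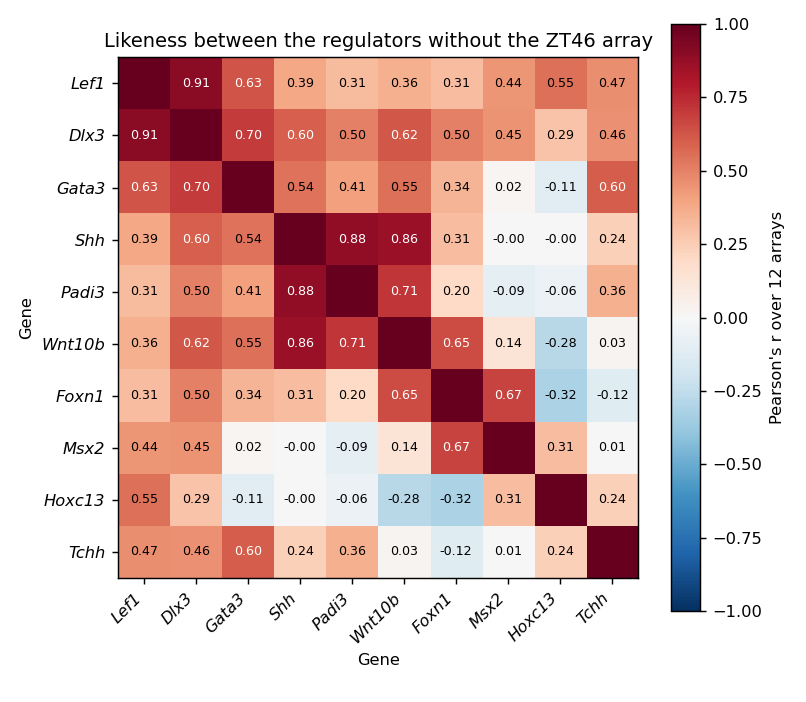
Pearson's r between the log2 values of each pair of regulators over the 12 arrays without ZT46, from -1 (blue) to 1 (red). Lef1 with Dlx3 (0.91) and Shh with Padi3 and Wnt10b (0.88 and 0.86) are the closest pairs, and Foxn1 with Hoxc13 (-0.32) the most opposed.

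The genes whose pattern was most like the mean standardised pattern of the regulators depended on that array. Over 13 arrays the 10 most alike were Lrrc15 (r = 0.93), Krtap10-10, Gm11555, Krtap16-3, Krtap5-4, Gm11565, Krtap19-1, Foxb1, Krtap3-1 and Krtap8-1 (r = 0.89), 6 of them with a Krtap symbol. Of the 14953 genes tested, 37 have such a symbol. The mean pattern over 13 arrays was itself 1.94 in the ZT46 array and at most 0.43 elsewhere, so this ranking favours genes that are high there. Over the 12 arrays without ZT46 the 10 most alike were Fancg (r = 0.92), Tmem86a, Sf3a2, Aph1a, Casp9, Psme3, Sox9, Cyp2b23, Pygo2 and C1qc (r = 0.89). The 2 sets of 10 share 0 genes. In the second set, differences of the ZT46 array ran from -0.18 to 0.16 in log2, and Sox9, a factor of follicle stem cells, had one of 0.09.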

How the data were processed

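Gene expression was measured in 13 pools of whole back skin on Affymetrix whole-transcript arrays. The authors deposited 1 intensity per probe set and array on a linear scale. Per the submitters' processing notes, the tools were Affymetrix Expression Console 1.1.1 with PLIER 2.0. How arrays were normalized to each other, and on which build and annotation, is not given in the sources used here.

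Platform annotation assigns 1 gene to 21789 of the 35557 probe sets and several genes to 1621, and it does not list 12147. The gene IDs of 21698 matched the RefSeq table, which updated symbols. The highest-mean probe set of each of 19938 genes was used, as log2(intensity + 16). The dimmest 25% by mean were left out of tests.

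Arrays taken at 1 time of day on successive days were the replicates (3 at ZT2, 2 at each other time). Rhythms (F test on 24 h cosine and sine) and dark minus light were fitted with limma 3.58.1 in R 4.3.3 over all genes tested, with Benjamini-Hochberg adjustment and a threshold of 0.05. The fits were tested on simulated data. The ZT46 array was described against the other 12 without a test.

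The members and gene lists were chosen with earlier results of these data known. Named were all members, up to 4 genes per list with the largest difference (3 keratin associated proteins), and the 10 genes most like the mean pattern. Outside this rule, Gli1, Ptch1, Axin2, Tgm3, Tchhl1, Padi1, Car6, Gjb2, Cyp2c29, Hamp and Nfil3 were picked with their values in view. Alternatives covered offset, filter, normalization, probe sets, each array left out and collection day.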

Additional observations from a re-analysis of the deposited data

Results flagged for a closer look

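Within the 6 dark and the 7 light arrays, each of the 10 regulators was checked for a highest or lowest value that lies far from its nearest neighbour relative to the whole range (Dixon's ratio on log2 values). Of 20 groups, 4 values were past the 95% critical value, 0.625 for 6 arrays and 0.568 for 7, and chance alone gives about 1 in 20 groups. In the dark arrays, the ZT46 values of Tchh (4132, ratio 0.894) and Msx2 (544, ratio 0.860) were far above the rest. Since the ZT46 array was singled out with earlier results known, these 2 ratios are a description, and neither the critical value nor the chance rate applies to them. Wnt10b was far below the rest in 2 arrays of the first day, ZT22 among the dark arrays (275, ratio 0.793) and ZT2 among the light arrays (271, ratio 0.570). These are also the arrays with the 2 lowest receptor medians, 82.4 and 70.5.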

How the results depend on the processing

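None of the 10 regulators passed the 24 h test or dark minus light under any alternative run. When each of the other 12 arrays was left out in turn, 8 of them were highest in the ZT46 array each time, and 4 to 5 met the 1.5-fold rule. With the dimmest 50% of genes left out, which removes 4 of the regulators, 5 were highest and 2 met the rule, and 46 genes in all met it in place of 94. Tchh, 1 of these 2 regulators, had a mean of 378 in the other 12 arrays. That is below the 380 of Wnt10b, which this filter removes, so Tchh stayed in through its ZT46 value. Hoxc13 fell under the line with an offset of 64, which left 3. The median difference of the regulators was 0.50 to 0.55 when single arrays were left out. Over all genes, the 24 h count of 318 ranged from 126 to 414 when single arrays were left out; it was lowest without the second ZT14 array, 128 and 132 without the first ZT14 and the first ZT10 array, and 179, 192, 195, 195 and 203 without the second and first ZT6, the second ZT2, the second ZT10 and the third ZT2 array. The dark-light count of 3 ranged from 1 to 16 (16 without the first ZT22 array, 6 without the first ZT2 array, 1 without the first ZT14 or the second ZT18 array) and was 1 with the dimmest 50% left out. The 24 h count was 160 with the receptor median as a covariate, and the cause was not tested. With collection day as a replicate block it was 211, and the block changed no call of a regulator. Deviations of the arrays of 1 day from the means of their times of day had correlations from -0.66 to 0.52 over 15 pairs of times. The median was -0.003, and 6 were above 0.1. Among the gene lists, alternatives gave 25 to 40 keratin associated proteins, 4 to 9 hair shaft keratins, 3 to 9 inner root sheath genes and 0 to 8 other shaft and cuticle genes that met the 1.5-fold rule, and 0 to 1 each for WNT pathway, peptidylarginine deiminase, epidermal differentiation and clock genes. The low ends of the first 4 ranges came with the dimmest 50% left out, which keeps fewer genes. There the rule was met by 25 of 26, 4 of 5, 3 of 3 and 0 of 5 genes, in the same order. Signal at the dim end limits what can be said of Shh, Wnt10b and Padi3. Their r with the receptor median over the 12 arrays without ZT46 was 0.70, 0.72 and 0.79. For Dlx3 it was 0.60 and for Lef1 0.45, and for the other regulators it ran from -0.17 (Msx2) to 0.37 (Gata3). Correlations of ranks over the same arrays were 0.64, 0.54 and 0.76 for Shh, Wnt10b and Padi3, and 0.32 and 0.22 for Dlx3 and Lef1. For the other regulators the rank values ran from -0.39 (Msx2) to 0.35 (Gata3).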

Other observations

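Some genes that are in none of the shaft and sheath lists were highest in the ZT46 array, and those given here were chosen after their values were seen. Lrrc15, which encodes a leucine-rich repeat membrane protein, had 1981 in the ZT46 array and 362 to 698 in the others (3.45-fold). Car6, a secreted carbonic anhydrase, had 1661 in the ZT46 array and 418 to 1218 in the others (2.33-fold), and Gjb2, a gap junction protein, 1574 in the ZT46 array and 486 to 1238 in the others (1.84-fold). Of the 94 genes that met the 1.5-fold rule, 49 were keratins or keratin associated proteins. The share of such genes among all genes tested was not counted, and the filter on dim genes includes the ZT46 value. With the dimmest 25% set by the 12 arrays without ZT46, 77 genes met the rule. Among them were 28 of 30 keratin associated protein genes tested, in place of 35 of 37.

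Among the genes that met the mirrored rule, Cyp2c29 and Hamp, also chosen after their values were seen, had differences of -3.76 and -3.29 in log2. Cyp2c29, a cytochrome of liver, had 103 in the ZT46 array and 229 to 4381 in the others, and Hamp, the liver hormone hepcidin, had 132 in the ZT46 array and 245 to 6797 in the others. Among the clock genes, Nfil3, a repressor of clock-controlled genes, met the 1.5-fold rule with a difference of 0.64 in log2. No clock gene met it with an offset of 64, with the dimmest 50% left out, or without any single array taken at ZT6 or ZT10. Dbp, a clock output factor, had 458 in the ZT46 array and 434 to 6524 in the others. All 15 clock genes tested had a 24 h rhythm, and the ZT46 array was taken at ZT22 while the others span the day. The part of time of day in the differences of Nfil3 and Dbp was not tested.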
